A study of Mus musculus with 6 samples.

Results

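DNA methylation was examined at CpG sites beside the start sites of microRNA genes in mouse GS cells. GS cells are cultured spermatogonia that contain spermatogonial stem cells, and here they carried the transgene of the line C57BL6/Tg14(act-EGFP-OsbY01), which had been bred into DBA/2. The 3 Space samples came from cells kept frozen for 6 months on the International Space Station (ISS), and the 3 Ground samples from cells kept frozen for 6 months on Earth. All 6 samples therefore shared genotype, freezing, thawing and a culture of 14 days with 2 passages before DNA was taken, and no unfrozen sample enters the comparison. GS cells grow on mouse embryonic fibroblast feeders, so a sample could also hold DNA of feeder cells. Methylation was read by reduced representation bisulfite sequencing (RRBS), which samples CpG-rich fragments. A methylation level is the percentage of reads at a site, or summed over the sites of a locus, that were methylated.

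Members were chosen by gene name and distance. Autosomal sites were taken where the nearest annotated start belonged to a gene named Mir followed by a number or Mirlet7, where that start lay at most 1000 bp away, and where each of the 6 samples had 10 or more reads. These conditions left 115 of the 681804 CpG sites that were read this deeply in all 6 samples, at 6 loci out of 16245 genes with such a site within 1000 bp. The name pattern found 14 genes in the table, and all of them were host genes (names ending in hg), which are the longer transcripts from which microRNA hairpins are cut. No gene named for a hairpin itself occurred, so the loci are described below as microRNA host gene loci. The label "microRNA genes" holds only in that sense.

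MicroRNAs are short RNAs that guide Argonaute proteins to partly complementary messenger RNAs and lower their translation or stability. The hairpin is cut out of the host transcript in the nucleus by Drosha with Dgcr8, carried to the cytoplasm by Xpo5 and cut again by Dicer1. The base pairs that matter most for target choice are made by the seed, bases 2 to 8 of the mature microRNA, so microRNAs with the same seed share many predicted targets. In mammals, CpG-dense promoters are mostly free of DNA methylation whether or not the gene is transcribed, and methylation of such a promoter goes with stable silencing.

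The 6 loci host microRNAs with well-known and different tissue associations. Mir155hg carries miR-155, a regulator of immune cells. Mir17hg carries the miR-17-92 cluster, a group of growth-promoting microRNAs made from a single transcript. Mir9-3hg and Mir124a-1hg carry miR-9 and miR-124, which are abundant in the nervous system. Mir205hg carries miR-205, a microRNA of epithelia, and Mir670hg carries miR-670. The mature sequences below, from RefSeq (GRCm38.p6), show what each host gene would deliver if transcribed and processed. The seed is in capitals.
mmu-miR-155-5p (Mir155hg): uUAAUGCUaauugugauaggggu
mmu-miR-17-5p (Mir17hg): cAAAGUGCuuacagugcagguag
mmu-miR-20a-5p (Mir17hg): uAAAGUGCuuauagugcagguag
mmu-miR-18a-5p (Mir17hg): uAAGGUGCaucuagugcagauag
mmu-miR-19a-3p (Mir17hg): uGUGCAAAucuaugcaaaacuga
mmu-miR-19b-3p (Mir17hg): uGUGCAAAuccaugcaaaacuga
mmu-miR-92a-3p (Mir17hg): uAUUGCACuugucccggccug
mmu-miR-9-5p (Mir9-3hg): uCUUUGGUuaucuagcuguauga
mmu-miR-205-5p (Mir205hg): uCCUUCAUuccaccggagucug
mmu-miR-670-5p (Mir670hg): aUCCCUGAguguauguggugaa

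Of the 11 microRNA genes looked for under these hosts, 10 were in the RefSeq table, and Mir124a-1 was not. Within the Mir17hg cluster, miR-17-5p and miR-20a-5p shared 1 seed and miR-19a-3p and miR-19b-3p shared another. None of the other mature sequences of these hosts shared a seed. In GRCm38 the hairpins lie downstream of the GENCODE M21 start of their host gene by 792 bp for Mir17, 2644 bp for Mir205, 3519 bp for Mir670, 5238 bp for Mir9-3 and 10973 bp for Mir155. The measured sites below lie near the host gene starts recorded with the data, which need not be the GENCODE M21 starts. Counted from the GENCODE M21 start, 6 of 6 measured offsets in the first exon fell on a CpG at Mir155hg. At Mir124a-1hg 1 of 4 did, and at Mir670hg 0 of 2. Apart from the distances given here in GRCm38, all positions are in mm39, the build in the submitters' processing notes.

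All 6 host gene loci were unmethylated in both groups. Their mean levels over the 6 samples ran from 1.35% at Mir9-3hg to 6.48% at Mir205hg, with a median of 1.71%. No locus was intermediate (20% to 80%) and none was methylated (over 80%), so the planned comparison of 3 classes could not be made within the set. Over all genes with a deeply read site in the same window, 91.6% were unmethylated, 2.95% intermediate and 5.47% methylated, with a median level of 1.89%. An unmethylated state at all 6 loci was therefore close to the usual state of promoter sites read by RRBS.

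Read depth differed greatly between the loci and sets how firmly each can be described. Mir155hg had 52 sites with 2207 to 2913 reads per sample summed over the sites, Mir17hg 31 sites with 752 to 1089 reads, Mir9-3hg 19 sites with 524 to 698 reads and Mir124a-1hg 10 sites with 298 to 393 reads. Mir670hg rested on 2 sites with 56 to 83 reads and Mir205hg on a single site with 19 to 47 reads. The 4 well-read loci had mean levels of 1.35% to 1.83%, and the higher levels of 3.04% and 6.48% belonged to the thinly read pair.

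**Figure D1:**
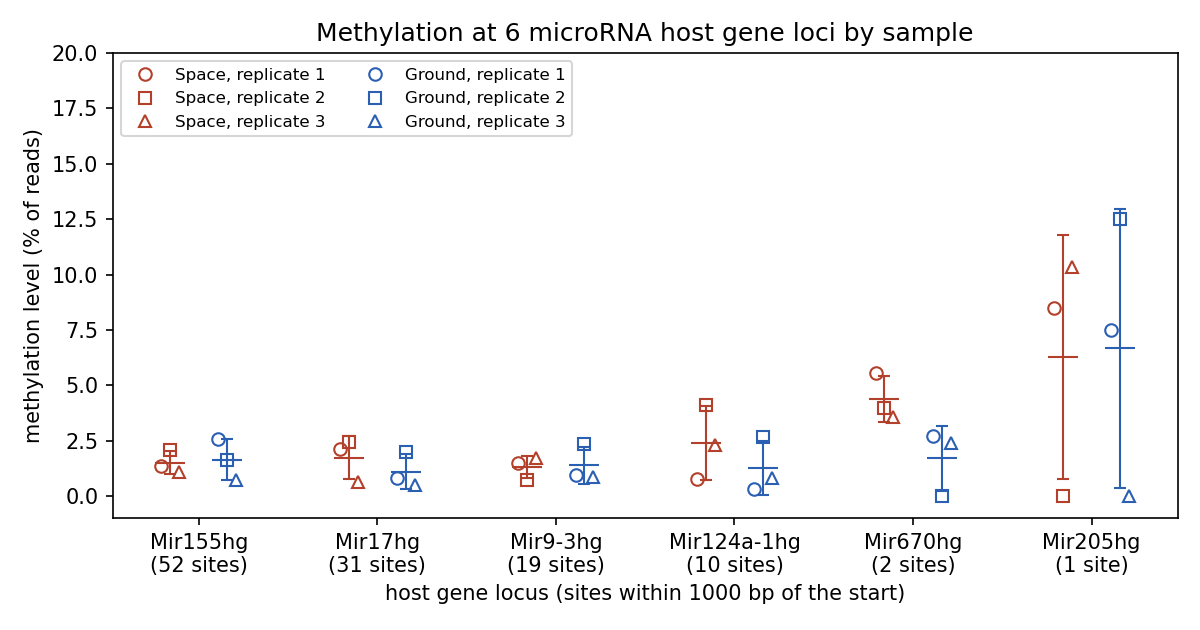
Methylation level (percent of reads) at each of the 6 host gene loci, with open symbols for the 3 Space (red) and 3 Ground (blue) replicates and a bar for the group mean with SD. The 4 loci with 10 or more sites lie below 5% in every sample, the groups overlap at every locus except Mir670hg, and Mir205hg, read at 1 site, ranges from 0% to 12.5%.

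Mir155hg (ENSMUSG00000097418, start at chromosome 16, 84500055, plus strand) was the most densely read locus. Its 52 sites lay from 577 bp upstream to 435 bp downstream of the start. The locus level was 1.34%, 2.10% and 1.11% in Space replicates 1 to 3 and 2.59%, 1.64% and 0.725% in Ground replicates 1 to 3. Ground samples held both the highest and the lowest value, and the Space values lay between them. The means were 1.52% ± 0.518 in Space and 1.65% ± 0.934 in Ground (SD, n = 3 each).

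Single sites of Mir155hg had mean levels from 0% to 5.63%, with a median of 1.47%, and 24 were higher and 27 lower in Space. The 6 sites from 80 to 128 bp downstream of the start had 0 to 2 methylated reads each in any sample, of 57 to 79, and no sample stood out there.

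The upstream edge of Mir155hg held its clearest contrast between neighbouring sites. At 577 and 545 bp upstream of the start, the summed level was 0%, 0% and 2.50% in the Space samples and 8.33%, 4.05% and 4.17% in the Ground samples. Every Space value was below every Ground value at this pair of sites, which share reads. Farther upstream, outside the 1000 bp window, the site at 1060 bp had a mean level of 22.9%, and the sites at 1137 and 1156 bp were methylated at 91.7% and 82.4%. The passage from the unmethylated to the methylated state therefore lay between 577 and 1137 bp upstream in both groups. The outermost of these sites was read 12 to 27 times per sample. It had 68.4%, 66.7% and 82.6% in Space and 92.6%, 100% and 84.2% in Ground, without overlap. The site at 1137 bp, with the same read number in every sample, went the other way. Its means were 93.9% in Space and 89.5% in Ground, and the groups overlapped. At 1060 bp Space was lower without overlap, with means of 16.74% in Space and 28.96% in Ground. Its read number differed by at most 1 from that at 1137 bp in every sample. By the joining rule used below, the sites at 1060, 1137 and 1156 bp share reads and are not separate results. The share of all single sites without overlap was not counted. By the quasi-binomial test, adjusted over the 92042 sites with mean levels of 5% to 95%, the outermost site had a p of 0.825.

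Mir17hg (ENSMUSG00000089726, start at chromosome 14, 115280311, plus strand) was read only upstream of its start. The 31 sites lay 871 to 432 bp upstream, and the unmethylated stretch continued beyond the window to 2421 bp upstream, with 167 sites in all between 0% and 4.32%. The locus level was 2.11%, 2.46% and 0.638% in Space and 0.798%, 2.01% and 0.521% in Ground. Each group held both high and low samples, and the groups overlapped. The means were 1.74% ± 0.966 in Space and 1.11% ± 0.790 in Ground (SD, n = 3 each).

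The higher Mir17hg values came from a few reads at neighbouring sites. In Space replicate 2, each of the 7 sites from 871 to 844 bp upstream had 3 methylated reads of 38, while Space replicate 3 had 0 of 44 at all of them. In Space replicate 1, each of the 4 sites from 489 to 432 bp upstream had 2 methylated reads of 19, Space replicates 2 and 3 had none, and Ground replicate 2 had 1 of 24. Ground replicate 2 also had 1 to 3 methylated reads of 44 at each of the 7 upstream sites. The 12 sites from 765 to 716 bp upstream were read only 10 to 22 times per sample, and their summed level was at most 0.758%. Of the 31 sites, 19 were higher in Space, 2 lower and 10 equal, and the samples with the most methylated reads differed from stretch to stretch.

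Mir9-3hg (ENSMUSG00000097023, start at chromosome 7, 79148856, plus strand) had the lowest mean level of the 6 loci. Its 19 sites formed 3 groups, 122 to 20 bp upstream, 313 and 318 bp downstream, and 931 to 996 bp downstream of the start. The locus level was 1.48%, 0.743% and 1.72% in Space and 0.954%, 2.35% and 0.860% in Ground. Ground replicate 2 was the highest and Space replicate 2 the lowest, and the groups overlapped. The means were 1.31% ± 0.507 in Space and 1.39% ± 0.837 in Ground (SD, n = 3 each).

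Mir9-3hg had the only host gene start in the RefSeq promoter table that equalled the GENCODE M21 gene start in GRCm38. The 300 bases at that start (GRCm38.p6, chromosome 7, 79499776 to 79500075, plus strand) hold 35 CpGs, a number reached by 6.95% of the 32851 mouse promoters in that table, whose median is 7. The window is printed to show this density, with CpGs in capitals. Measured sites are not marked, because the start used in the deposited table could not be placed on these letters.
Mir9-3hg promoter: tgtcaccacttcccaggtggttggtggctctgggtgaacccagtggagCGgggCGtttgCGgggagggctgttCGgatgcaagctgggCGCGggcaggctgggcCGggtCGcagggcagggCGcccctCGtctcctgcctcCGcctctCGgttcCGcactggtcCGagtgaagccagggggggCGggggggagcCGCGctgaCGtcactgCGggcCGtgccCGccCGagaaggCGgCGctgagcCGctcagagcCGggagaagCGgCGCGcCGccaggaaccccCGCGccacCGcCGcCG

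Mir124a-1hg (ENSMUSG00000097545, start at chromosome 14, 64824744, plus strand) was read only downstream of its start, at 10 sites from 193 to 634 bp. The locus level was 0.765%, 4.13% and 2.29% in Space and 0.336%, 2.66% and 0.820% in Ground. Space replicate 2 was the highest, but Space replicate 1 lay below 2 of the Ground samples. The means were 2.40% ± 1.68 in Space and 1.27% ± 1.23 in Ground (SD, n = 3 each). From 193 to 253 bp the methylated reads came mostly from Space replicate 2, with 3 or 4 per site, and from 558 to 634 bp mostly from Space replicate 3 and Ground replicate 2.

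Mir670hg and Mir205hg were too thinly read for a firm level. Mir670hg (ENSMUSG00000075020, start at chromosome 2, 94095374, minus strand) had sites 336 and 339 bp downstream, with 5.56%, 4.0% and 3.57% in Space and 2.70%, 0% and 2.41% in Ground. All 3 Space values were above all 3 Ground values, with means of 4.38% ± 1.04 and 1.70% ± 1.48 (SD, n = 3 each). In reads, these levels were 2 to 4 methylated reads per Space sample and 0 to 2 per Ground sample. Mir205hg (ENSMUSG00000097850, start at chromosome 1, 193192482, minus strand) was read at 1 site, 533 bp downstream. It had 8.51%, 0% and 10.3% in Space and 7.50%, 12.5% and 0% in Ground, with 0 to 4 methylated reads per sample, so a sample without methylated reads occurred in each group.

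No difference between Space and Ground passed the quasi-binomial test at any of the 6 loci. In this test methylated and total reads per locus were compared, with a dispersion estimated from the replicates across all genes. None of the loci had an adjusted p under 0.05 (Benjamini-Hochberg over 16197 genes), where the smallest value was 0.942 at Mir17hg, and none had an unadjusted p under 0.05. Over all genes the same test called 0% by the adjusted p and 5.32% by the unadjusted p. The 6 loci therefore sat inside a table in which no gene was called, and by edgeR and limma the count of called loci was also 0.

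The size of a difference that the data allow is given by its interval. From pooled reads, Space minus Ground was −0.17 percentage points at Mir155hg (95% interval −1.18 to 0.842), 0.702 at Mir17hg (−0.702 to 2.11), −0.13 at Mir9-3hg (−1.56 to 1.31) and 1.02 at Mir124a-1hg (−1.41 to 3.44). At these 4 loci the intervals hold no change beyond 3.44 points in either direction. At Mir670hg the difference was 2.66 points (−3.20 to 8.53) and at Mir205hg 0.765 points (−12.6 to 14.1), so a change of several points was not detectable at this depth. At Mir205hg the difference between the mean levels of the replicates was −0.38 points, opposite in sign to that of pooled reads.

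**Figure D2:**
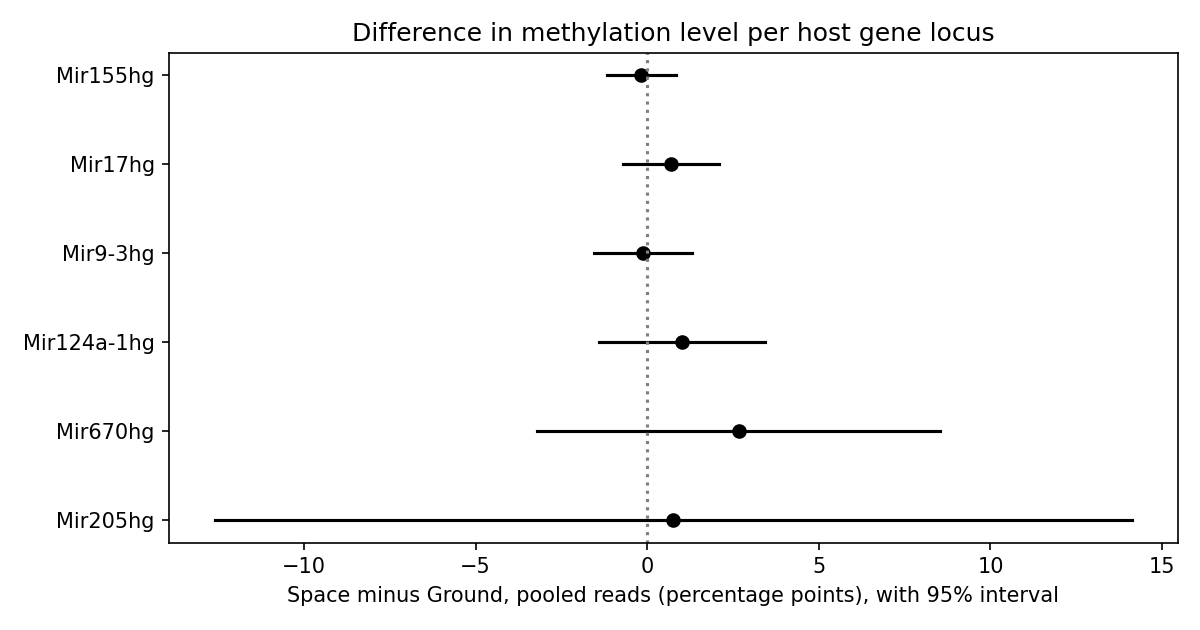
Space minus Ground in methylation level (percentage points, pooled reads of 3 samples per group) at each host gene locus, with points for the estimate and lines for the 95% interval of the quasi-binomial fit. All 6 intervals include 0, and they widen from about 1 point on either side at Mir155hg (52 sites) to −12.6 and 14.1 points at Mir205hg (1 site).

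Mir670hg was the only locus whose groups did not overlap, which is 1 of 6 higher in Space and 0 of 6 lower. Over all genes 5.55% were higher and 3.9% lower in Space without overlap, and among genes with a mean level under 20% the shares were 5.56% and 3.89%. With 3 samples a group, an exact permutation test of a single locus cannot give a two-sided p below 0.1. No locus differed by more than 10 percentage points between the group means, against 0.653% of all genes, and the median absolute difference was 0.504 points at the 6 loci and 0.611 points over all genes with a mean level under 20%. The mean over the 6 loci was 2.94% ± 0.605 in Space and 2.30% ± 1.33 in Ground (SD, n = 3 each), a difference of 0.638 points that lay within the spread of the replicates. Ground replicate 3 was low, at 0.889%, against 2.24% to 3.53% in the other samples. Without it the difference was −0.07 points, and without Ground replicate 2, the highest sample, it was 1.25. Mir205hg, at 1 site, weighs as much in the mean over loci as Mir155hg at 52.

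At the level of single CpGs the host gene loci were nearly uniform. The 115 sites had mean levels from 0% to 6.48% with a median of 1.41%, and 54 lay upstream and 61 downstream of the start. Only 5 had a mean over 5% and none over 10%, and the highest level in any sample was 18.8%, 3 of 16 reads in Space replicate 2, 38 bp upstream of Mir155hg. Of the sites, 57 were higher in Space, 44 lower and 14 equal at 0. Of those 14 sites 10 lay in 1 stretch of Mir17hg, where each was read 10 to 22 times per sample on shared fragments. By the limit of 3 reads, a count of 0 there allows a level of up to 13.6% at 22 reads and up to 30% at 10, for counting error only.

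Only the 5 sites over 5% entered the site test, which was run on sites with mean levels of 5% to 95%. None of them had an adjusted or an unadjusted p under 0.05, and the smallest unadjusted p was 0.394 by the quasi-binomial test across all such sites. Over all 92042 sites tested the shares were 0% by the adjusted p and 5.61% by the unadjusted p.

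**Figure D3:**
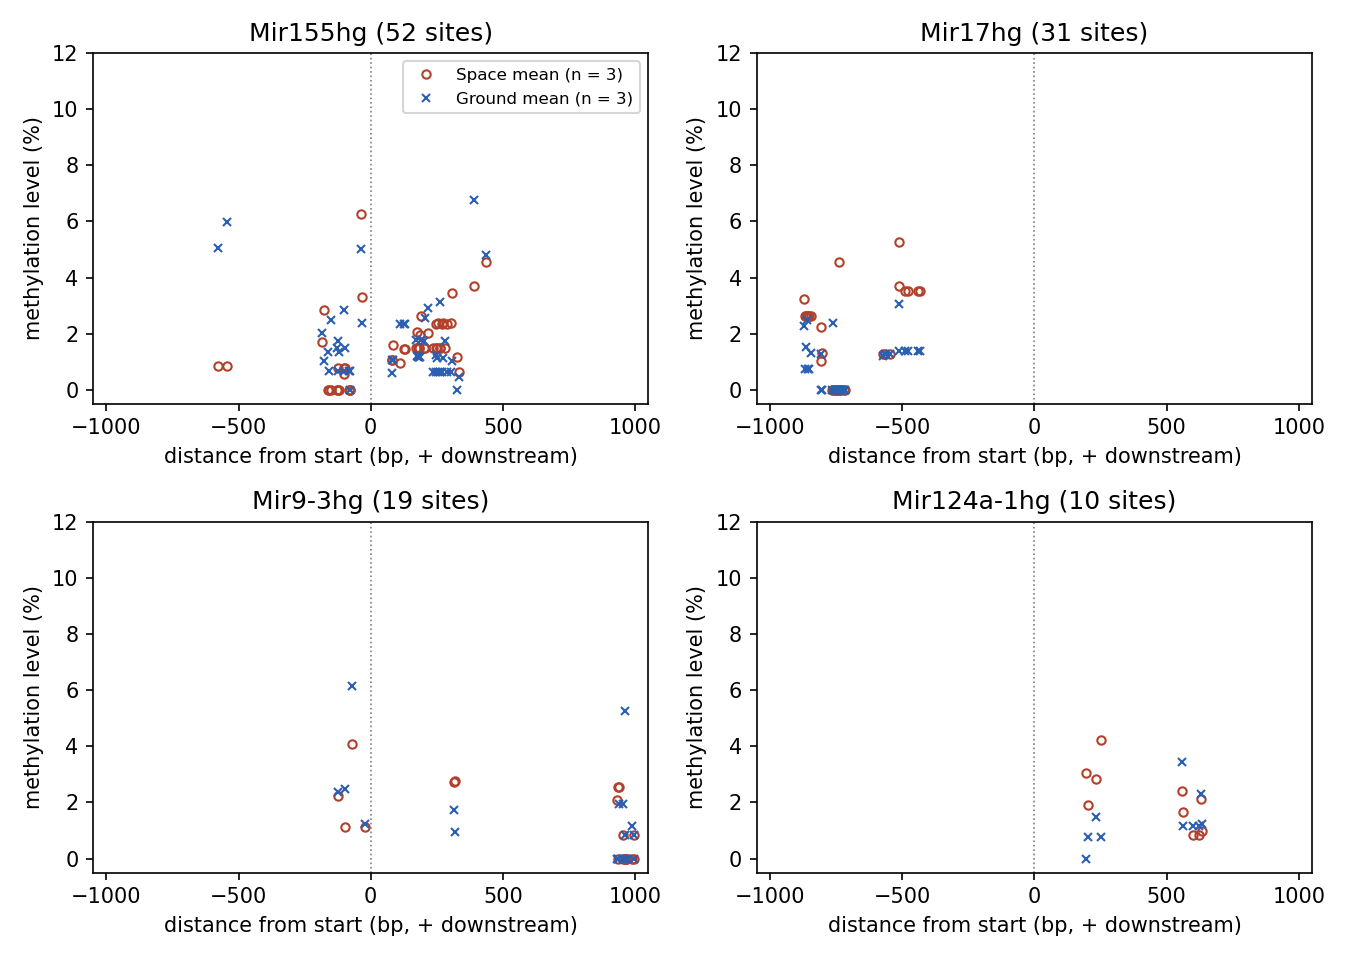
Mean methylation level (percent) of each CpG site in Space (red circles, n = 3) and Ground (blue crosses, n = 3) against its distance from the start of the host gene (bp), for the 4 loci with 10 or more sites, with a dotted line at the start. Every group mean lies below 7%, Mir17hg is read only upstream and Mir124a-1hg only downstream of the start.

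Neighbouring sites were not independent, because many were read on the same fragments. When sites at most 100 bp apart whose read numbers differed by at most 1 in every sample were joined, the 115 sites fell into 36 stretches of 1 to 12 sites. Space was above Ground without overlap in 1 stretch, a single site of Mir670hg, and below it in 1, the upstream edge of Mir155hg. Over all 119726 stretches joined by the same rule within 1000 bp of a start, 3.77% were above and 3.04% below without overlap. The mean was higher in Space in 23 stretches and lower in 12. In the 13 stretches of 3 or more sites, a methylated read was present at every site in 27 of 78 pairs of stretch and sample, at some sites in 35, and at none in 16.

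The clearest such stretch was at Mir155hg, 235 to 303 bp downstream of the start. All 12 of its sites had exactly 1 methylated read of 56 in Space replicate 1. They had 1 or 2 of 37 in Space replicate 2, and 1 or 2 of 53 to 54 in Ground replicate 1. The remaining samples lacked a methylated read at some of the 12 sites. In both groups the methylated reads near a host gene start were few, and no site in the stretches of 3 or more sites had more than 4 in any sample. They recurred at every site in 27 of the 78 pairs of stretch and sample, so this was not the rule. At Mir17hg, 765 to 716 bp upstream, no sample had a methylated read at more than 1 of 12 sites. The Pearson dispersion of the replicates (1 for pure counting error) was 8.21 at Mir155hg, 4.68 at Mir17hg, 4.21 at Mir124a-1hg, 2.24 at Mir9-3hg and 1.56 at Mir205hg, and 0.539 at Mir670hg.

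The other 8 genes found by the name pattern had too few reads, or no site, near their start. Mir22hg, host of miR-22, had 15 sites within 1000 bp but at most 4 reads in its least-read sample at any of them, and 2.04% of its 687 reads over all samples were methylated. Mir142hg, host of the blood cell microRNA miR-142, had 2 such sites with 7.32% of 123 reads methylated. Mir100hg had 3 with 44.7% of 141 reads methylated, the only one of the 9 host start regions with any reads that was not below 20%. Mir124-2hg, Mir133a-1hg, Mir181a-1hg, Mir217hg and Mir99ahg had no site in the window. These values rest on sites below the read minimum and enter no comparison.

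Beyond the window, some sites assigned to the host genes showed the methylated state that the members lacked. Among 414 deeply read sites over 1000 bp away, 368 were unmethylated, 8 intermediate and 38 methylated. Mir9-3hg supplied 162 of the 414 and Mir17hg 138, so the counts mostly describe these loci, and Mir22hg and Mir181a-1hg had none. From 1000 to 2000 bp, 130 of 134 were unmethylated, and over 10000 bp 89 of 118 were unmethylated and 25 methylated. These sites are nearest to the host gene start but may lie in other elements, which the table does not name. Their mean level was 11.3% in Space and 11.4% in Ground, no site differed by more than 20 points, and 2 of the 35 tested had an unadjusted p under 0.05 by the quasi-binomial test, against 5.61% of all sites.

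The width of the unmethylated region differed between loci. Around Mir9-3hg, 47 sites from 2930 bp upstream to 1196 bp downstream were unmethylated, with methylated sites at 6198 to 6231 bp upstream. Further unmethylated runs followed downstream at 5867 to 7228 bp, 9389 to 9897 bp and 16262 to 16757 bp, broken by methylated sites at 3378 bp and at 13566 and 13579 bp and by an intermediate site of 21.5% at 7307 bp. Mir124a-1hg was unmethylated at all 18 sites from 193 to 2624 bp downstream and methylated at 7162 and 7172 bp. At Mir205hg the single unmethylated member contrasted with 6 methylated sites of 81.74% to 98.96%, 5855 bp or more upstream. The Mir9-3hg site at 7307 bp had means of 18.03% in Space and 25.04% in Ground. In each of the other stretches named in this paragraph the Space and Ground means were within 5 points of each other. Wider gaps occurred elsewhere beyond the window, in either direction. Examples are the Mir155hg site at 1060 bp upstream (16.74% in Space, 28.96% in Ground) and the Mir133a-1hg site (53.97% and 41.58%).

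**Figure D4:**
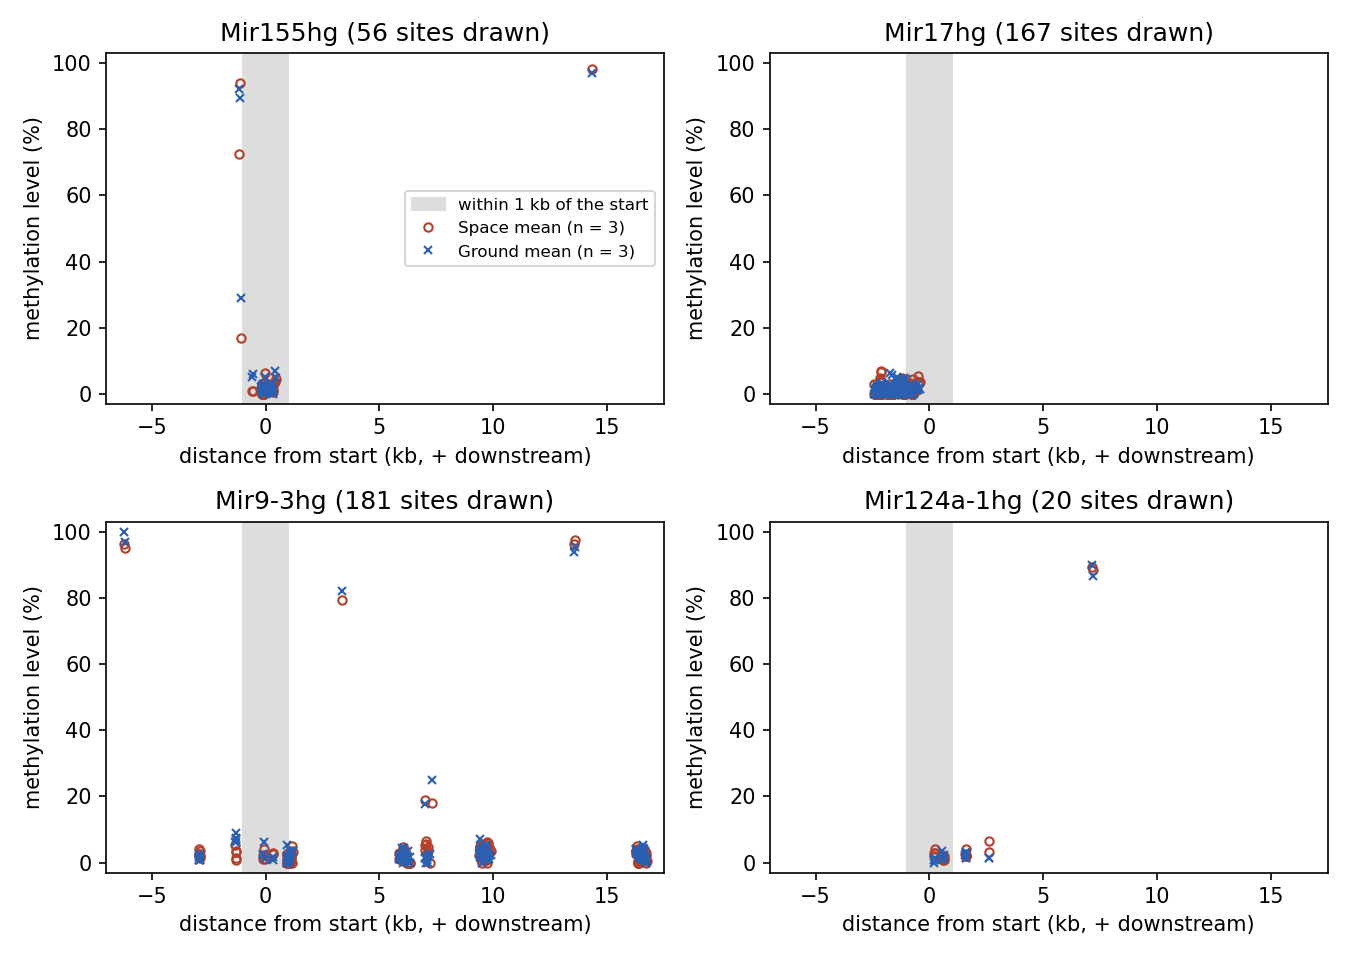
Mean methylation level (percent) of each deeply read CpG site assigned to 4 host genes in Space (red circles, n = 3) and Ground (blue crosses, n = 3) against distance from the start (kb), with the 1 kb window shaded. Members in the window lie near 0%. Methylated sites near or above 80% lie on either side of Mir155hg and Mir9-3hg. At Mir124a-1hg they lie downstream, and no upstream site was deeply read. The 2 methylated Mir17hg sites 39758 and 39777 bp upstream are outside the drawn range.

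The genes that make and use microRNAs had the same unmethylated starts. All 26 listed machinery genes were measured, at 1040 sites, with mean levels of 0.613% to 3.10% and a median of 1.61%. Among them were Drosha and Dgcr8 of the nuclear cut at 1.90% and 1.47%, the exporter Xpo5 at 1.71%, and Dicer1 at 1.76%. The Argonaute genes Ago1, Ago2, Ago3 and Ago4 had levels of 1.03%, 1.004%, 1.86% and 1.72%. Lin28a and Lin28b, inhibitors of let-7 processing, had levels of 1.40% and 1.20%.

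None of the 26 machinery genes passed the adjusted test, 13 were higher and 13 lower in Space, and 3 had an unadjusted p under 0.05 against 5.32% of all genes. Without overlap, 1 was higher in Space (Ago3) and 4 were lower (Khsrp, Ago4, Lin28a and Lin28b), against 5.55% and 3.9% of all genes. The 3 genes with the smallest p were picked out here for their p. Ago3 had 1.22%, 4.0% and 3.73% in Space and 0.575%, 0.521% and 1.14% in Ground, without overlap. Drosha, with the largest difference between replicate means of the list, had 0.827%, 4.99% and 3.42% in Space and 0.775%, 0.908% and 0.476% in Ground, with overlap. Khsrp, which binds the terminal loop of some hairpins, had 0.471%, 0.484% and 0.412% in Space and 3.72%, 1.34% and 2.57% in Ground, without overlap. Each difference was 2.09 to 2.36 percentage points in size and had an adjusted p of 0.896 (quasi-binomial test, Benjamini-Hochberg over all genes).

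**Figure D5:**
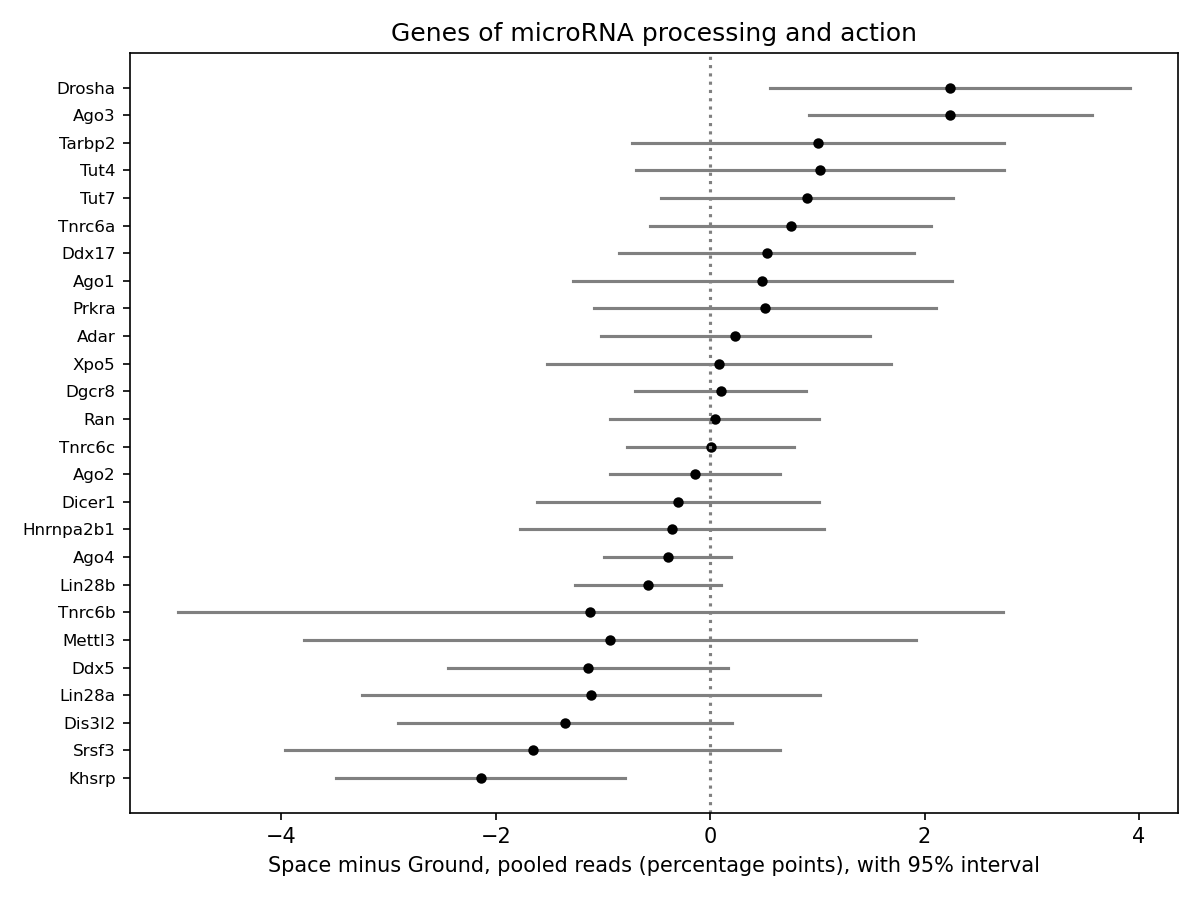
Space minus Ground in methylation level (percentage points, pooled reads of 3 samples per group) at the starts of 26 genes of microRNA processing and action, with points for the estimate and lines for the 95% interval. The intervals of Drosha, Ago3 and Khsrp leave out 0, but no gene passes the test adjusted over all genes.

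Levels were also described at starts of germ cell genes, which are methylated in most somatic cells. Of 12 listed genes 10 were measured, and 9 of them, among them Dazl at 2.14% and Ddx4 at 2.46%, were below 5%. Dpep3, read at 2 sites, had 25.998%. Depth was alike in the groups, with 29298982 to 33743845 reads summed over all sites of the table in Space and 28535973 to 30427993 in Ground. The part of feeder cell DNA in the levels was not tested.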

How the data were processed

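RRBS libraries of 6 GS cell samples, 3 Space and 3 Ground, were prepared with a Zymo-Seq kit, and the submitters' processing notes name Trim Galore, Bismark 0.24.2, methylKit and the build mm39. The deposited table gives, per CpG site, the count of reads and the percent methylated in each sample, with the nearest gene start, all made by the authors. Methylated reads were recovered as count times percent, within 0.000266 of a whole read. The recorded site position is the C of the CpG on the plus strand, which held CG in 97.36% of 20657 sites checked against stretches that did not move between builds.

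Sites with 10 or more reads in all samples and within 1000 bp of a start were summed per gene. Replicates are called biological by the submitters, and the p-values set the difference between groups against the spread between these samples. Space and Ground were compared by a quasi-binomial test with the dispersion moderated by limma 3.58.1 (R 4.3.3), adjusted over all genes. Intervals use the moderated dispersion with 0.5 reads added to each kind. In data simulated for Space against Ground per gene on 16197 genes, the test called 26% of genes raised by 3 points, 60% by 5, 88% by 10 and 80% by 20. For each size 50 genes were raised in the same data, drawn from genes with levels under 20% whatever their depth. These rates are therefore not the power at the 6 loci. Of 15997 unchanged genes 12 were called, and 5.93% had an unadjusted p under 0.05 by the quasi-binomial test. Alternatives included other read minima, windows and class limits, edgeR 4.0.16, limma, Fisher's exact test, a replicate block and leaving out each replicate. Members and lists were chosen with earlier results of these data known. Named were all 6 loci, the machinery genes with the largest difference or an unadjusted p under 0.05, and examples chosen by role. The intervals thus cover the spread between replicates, and the limits for a count of 0 cover counting error only. One reference sequence is not reported here.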

Additional observations from a re-analysis of the deposited data

How the results depend on the processing

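No host gene locus was called under any alternative run. No CpG site of these loci was called by edgeR, limma or Fisher's exact test, with the replicate block or without 1 replicate. All loci stayed unmethylated under the other read minima, windows, site minimum and site weights, and with class limits of 10% and 90%. With reads pooled over replicates and Fisher's exact test, where the spread between replicates is left out and 3227 genes were called in all, 9 machinery genes were called and 1 locus, Mir17hg, had an unadjusted p under 0.05 (0.0383, adjusted 0.133). The count of loci higher in Space without overlap fell to 0 when 3 or more sites were required, since Mir670hg has 2, and ranged from 1 to 2 when a replicate was left out, the 2 arising without Space replicate 3. The difference of the mean over loci was −0.93 points at a minimum of 5 reads, where 1 site of Mir142hg joined and the difference at Mir124a-1hg turned to −0.54, and 0.042 at that minimum without Mir142hg. With sites within 500 bp (5 loci) the difference of the mean over loci was 1.40 points, and within 2000 bp (8 loci) it was 0.016. It ranged from −0.07 points without Ground replicate 3 to 1.25 points without Ground replicate 2. Without 1 replicate the sign turned at Mir155hg (−0.60 to 0.335 points), Mir9-3hg (−0.34 to 0.405) and Mir205hg (−3.71 to 2.76). Whether the replicate numbers pair the samples is not known. Correlations of same-numbered deviations across genes were 0.0797, 0.0122 and 0.0118, and those of differently numbered deviations ran from −0.0502 to 0.0395. With the replicate block 0 loci were called. The mean of the 3 paired differences equals the difference of the group means by arithmetic (0.638 points), so it is no separate check. Leaving out host genes gave no locus and no value. Depth limits Mir670hg and Mir205hg most.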
